A study of Mus musculus with 12 samples.

Results

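The genes described here encode the matrix metalloproteinases (MMPs), the ADAMTS proteases and their tissue inhibitors (TIMPs) in SCC7 cells, a mouse squamous carcinoma line, after growth in medium conditioned by macrophages. They were chosen by name, as protein-coding mouse genes whose symbols are Mmp or Adamts with a number, or Timp with a digit. The count table held 45 of them among 55487 genes, 22 MMP, 19 ADAMTS and 4 TIMP genes. Mmp1a also has such a symbol but is annotated as a polymorphic pseudogene in GENCODE release M21, so it is not among the 45. It had at most 4 reads in a library.

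Bone-marrow-derived macrophages were first kept for 24 h with interferon-gamma at 20 ng/ml (giving M1 CM), with IL-4 at 20 ng/ml (M2 CM), with 75% SCC7-conditioned medium (TAM CM, named for tumour-associated macrophages) or in plain DMEM (M0 CM). SCC7 cells, labelled wild type in every group, then received the medium for 24 h, and RNA of the SCC7 cells was sequenced, in 3 libraries per medium and 12 in all. The sources used here do not give whether cytokine was carried over in the medium, so an effect of the macrophages' products and one of leftover cytokine cannot be told apart. For TAM CM, made without cytokine, the same holds for the 75% SCC7-conditioned medium. An effect of any of it left in TAM CM cannot be told apart from one of the macrophages' products. Separate cultures are not named for the libraries of a medium, so the p-values measure spread between samples that may be technical only.

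MMPs are zinc-dependent proteases, secreted as inactive proenzymes or anchored in the membrane, that cut collagens, gelatins, laminins and many other matrix proteins. ADAMTS proteases are secreted relatives with thrombospondin repeats that act on narrower sets of substrates, such as the large proteoglycans versican and aggrecan, procollagen or fibrillin microfibrils. TIMPs bind the active site of these enzymes and hold them in check, and the balance of enzyme and inhibitor is a classical theme of tumour invasion.

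Library totals ran from 18996937 to 22596630 counts, and 14509 genes passed the filter on low counts, among them 22 of the 45 members: 10 MMP, 9 ADAMTS and 3 TIMP genes. Values are CPM on TMM-scaled library sizes and, unless given per library, are mean ± SD of n = 3 libraries. Fold changes are on the log2 scale with a standard error (SE), and a gene is said to have risen or fallen where edgeR's quasi-likelihood test gave a Benjamini-Hochberg adjusted p, over all genes tested, under 0.05. SCC7 expressed the simple keratins Krt8 and Krt18, but the squamous markers Krt5, Krt14 and Krt6a and the epithelial markers Epcam and Cdh1 had at most 5 reads in a library. M2 CM replicate 3 has a melanoma as its labelled cell type. It was kept in M2 CM, and the numbers of members called were also obtained without it.

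Per kb of annotated exon, Timp2 was the highest member in all 4 media, at 172 ± 7.16 CPM per kb in M1 CM, 331 ± 8.53 CPM per kb in M2 CM, 247 ± 3.81 CPM per kb in TAM CM and 287 ± 8.88 CPM per kb in M0 CM. Timp1 came next in all 4 media, at 124 ± 2.11 CPM per kb in M1 CM, 135 ± 2.46 CPM per kb in M2 CM and 167 ± 14.4 CPM per kb in TAM CM, against 106 ± 2.73 CPM per kb in M0 CM. Below these inhibitors stood the gelatinase gene Mmp9 and the membrane protease gene Mmp14. In TAM CM Mmp9 and Mmp14 had 41.7 ± 2.37 CPM per kb and 41.0 ± 0.630 CPM per kb, which did not differ beyond their spread, while in M0 CM they had 58.7 ± 1.23 CPM per kb and 47.4 ± 1.82 CPM per kb, with no overlap. Timp3, the other inhibitor tested, ranked 3 in TAM CM, 6 in M2 CM and 5 in both M1 CM and M0 CM. Among the ADAMTS genes the leader changed with the medium. It was Adamts1 in M2 CM (45.7 ± 0.809 CPM per kb) and TAM CM (31.4 ± 1.71 CPM per kb), and Adamts7 in M1 CM (20.2 ± 0.828 CPM per kb) and M0 CM (12.3 ± 0.890 CPM per kb). Gene length here is the union of all annotated exons, which can exceed the transcript that the cells make.

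**Figure D1:**
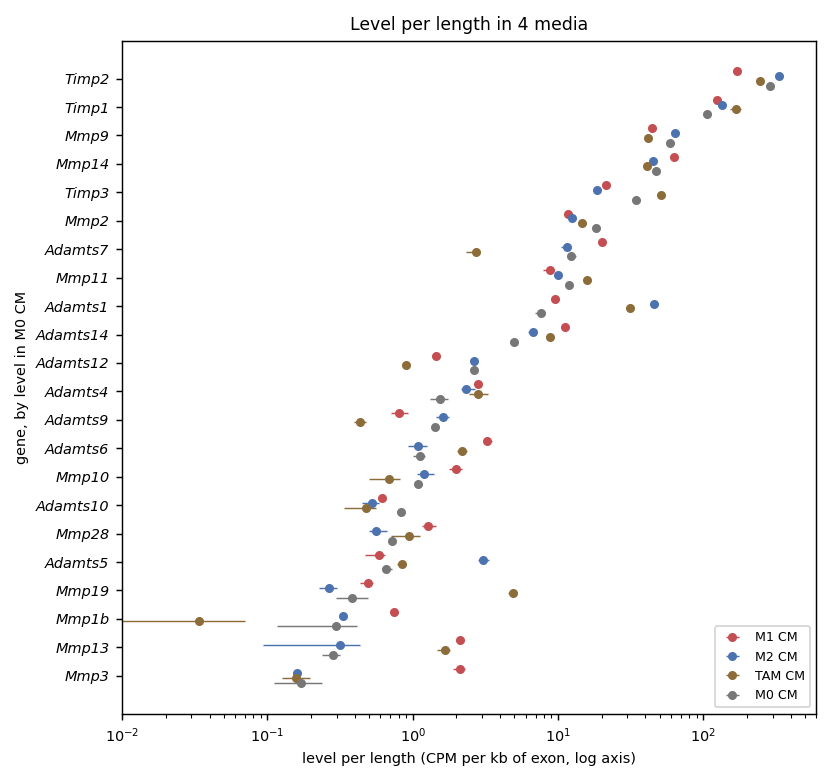
Level of the 22 members tested, in CPM per kb of annotated exon on a log axis, with points for the mean of 3 libraries and bars for their range, coloured by medium and ordered by the level in M0 CM. Timp2 and Timp1 lie at the top in every medium, while Mmp1b, Mmp19, Mmp3, Mmp13, Adamts7, Adamts1 and Adamts5 are those whose mean level differs by over 4-fold between some of the media; 1 TAM CM library of Mmp1b is at 0, beyond the axis.

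Every one of the 22 members tested differed among the 4 media (edgeR's quasi-likelihood test over the 3 contrasts with M0 CM together), where 83.5% of all genes tested did. In M1 CM against M0 CM 12 members rose and 8 fell, 20 of 22, where 53.4% of all genes were called, 27.7% as higher and 25.6% as lower. In M2 CM 7 rose and 4 fell, 11 of 22, where 39.4% of all genes were called (21.0% higher, 18.5% lower). Scaling by library size alone made this 6 and 5, beside 40.3% of all genes. In TAM CM 10 rose and 10 fell, 20 of 22, where 70.0% of all genes were called (35.1% higher, 34.9% lower). Changes of at least 2-fold were found for 5 members in M1 CM (8.55% of all genes), 2 in M2 CM (3.25%) and 7 in TAM CM (19.0%). Libraries of the 2 groups did not overlap for 20 members in M1 CM (58.8% of all genes), 12 in M2 CM (49.5%) and 20 in TAM CM (73.1%). Those 22 members had a median log2 fold change of 0.35 in M1 CM (all genes tested 0.012), 0.058 in M2 CM (all genes -0.0035) and 0.12 in TAM CM (all genes 0.00086). The 3 comparisons share the M0 CM libraries and are not independent of each other. In bulk samples such as these, fewer cells that express a gene and less of its RNA per cell cannot be told apart.

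**Figure D2:**
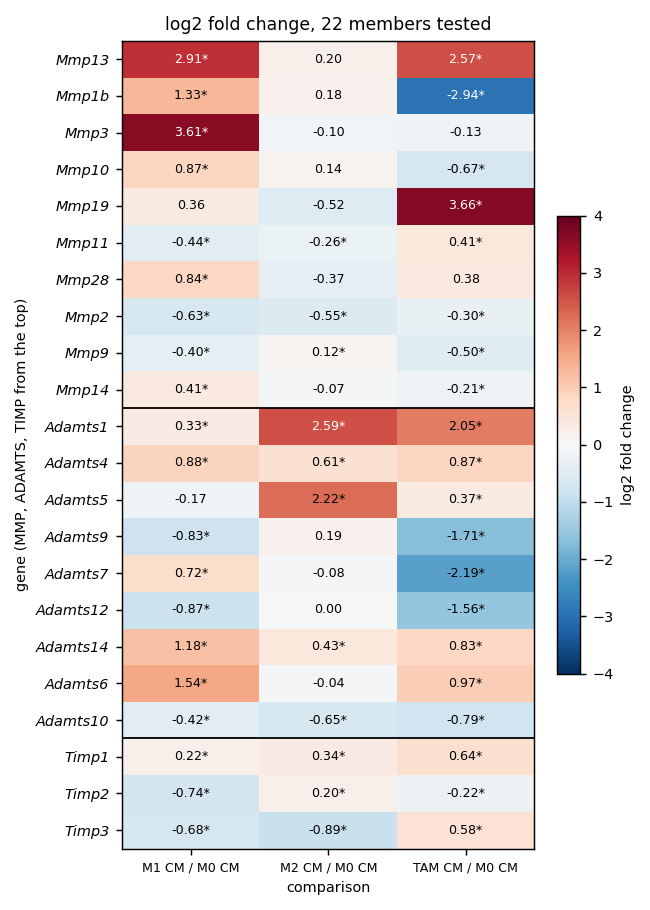
log2 fold change of each member tested in M1 CM, M2 CM and TAM CM over M0 CM, with MMP, ADAMTS and TIMP genes from the top; an asterisk marks an adjusted p under 0.05. Mmp13 and Mmp3 lead in M1 CM, Adamts1 and Adamts5 in M2 CM, and Mmp19, Mmp13 and Adamts1 in TAM CM, where Adamts7 fell; the value of Mmp1b in TAM CM rests on 3 reads.

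Several of the collagenase and stromelysin genes stand close together on chromosome 9, where 9 members lie within 427 kb (7272514 to 7699585 in mm10), and 4 of them, Mmp13, Mmp1b, Mmp3 and Mmp10, passed the filter. The 120 bases before the start of each of these 4 genes are shown because they share a feature the choice of genes did not use, a match to the AP-1 motif TGANTCA, given in capitals. Adamts1, the member with the most significant change in M2 CM, is printed with them and has no such match. Sequences are from RefSeq (GRCm38.p6), 5′ to 3′ on the strand of the gene, at chr9:7272394-7272513 (plus), chr9:7388027-7388146 (minus), chr9:7445702-7445821 (plus), chr9:7502222-7502341 (plus) and chr16:85803114-85803233 (minus).
Mmp13: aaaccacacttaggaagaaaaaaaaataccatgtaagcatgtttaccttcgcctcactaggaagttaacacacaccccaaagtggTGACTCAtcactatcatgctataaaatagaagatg
Mmp1b: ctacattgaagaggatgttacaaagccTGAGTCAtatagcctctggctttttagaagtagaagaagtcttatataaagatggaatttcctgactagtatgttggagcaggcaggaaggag
Mmp3: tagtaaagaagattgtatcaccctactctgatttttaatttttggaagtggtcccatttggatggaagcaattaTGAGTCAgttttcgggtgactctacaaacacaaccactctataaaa
Mmp10: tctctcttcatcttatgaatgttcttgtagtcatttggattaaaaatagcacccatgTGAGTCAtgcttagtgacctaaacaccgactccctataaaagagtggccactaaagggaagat
Adamts1: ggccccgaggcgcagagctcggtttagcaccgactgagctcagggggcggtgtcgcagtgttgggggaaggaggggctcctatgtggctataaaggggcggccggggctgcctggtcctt

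In these sequences the first base of the AP-1 match lies 35 bases before the start of Mmp13, 46 before Mmp3, 63 before Mmp10 and 93 before Mmp1b. The motif reads the same on both strands, and windows from 250 bases before to 50 after the start were searched. A match was present in 7 of the 9 members of the chromosome 9 cluster and in none of the other 22 members that have a window in the RefSeq table, against 7.81% of all 32851 windows. Mmp12 and Mmp7 have 2 windows each, with the match in 1 of them, and Mmp8 and Mmp27 have no match. The other motifs searched, on both strands, were the PEA3 motif AGGAAG, present in 6 of the 9 cluster members and 35.4% of all windows, an NF-kB motif, in 3 and 50.8%, and TTCNNNGAA for STAT factors, in 0 and 8.3%. Such matches describe the sequence and show no binding.

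Neighbours in the cluster did not respond alike. Mmp13 encodes collagenase-3, which cuts fibrillar collagens (ENSMUSG00000050578, chromosome 9, 7272514 to 7283331, plus strand). It had 5.76, 5.34 and 5.88 CPM in M1 CM, 1.16, 0.251 and 1.14 CPM in M2 CM and 4.80, 4.65 and 3.92 CPM in TAM CM, against 0.638, 0.845 and 0.771 CPM in M0 CM. All libraries of M1 CM and TAM CM lay above all of M0 CM, and those of M2 CM overlapped them. The log2 fold change was 2.91 (SE 0.25, adjusted p = 5.04e-14) in M1 CM, 7.53-fold, and 2.57 (SE 0.26, adjusted p = 2.76e-12) in TAM CM, 5.93-fold, while in M2 CM the difference of 0.20 did not pass the test (adjusted p = 0.675).

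Mmp3, for stromelysin-1, which cuts proteoglycans and laminin and activates other MMPs (ENSMUSG00000043613, chromosome 9, 7445822 to 7455975, plus strand), was high in M1 CM alone. Its libraries stood at 4.14, 3.94 and 3.43 CPM in M1 CM, 0.279, 0.301 and 0.285 CPM in M2 CM and 0.273, 0.226 and 0.356 CPM in TAM CM, against 0.425, 0.199 and 0.289 CPM in M0 CM. M1 CM held 241 reads of Mmp3 in all, against 20 in M0 CM, a ratio of 12.4 (exact 95% interval 7.85 to 20.7, counting error only). By the fit over all genes the log2 fold change was 3.61 (SE 0.32, adjusted p = 8.95e-14). Mmp3 passed the filter on low counts only through its M1 CM libraries, as every other library had at most 10 reads. Its tests against M1 CM are thus no separate support for a rise there. The direct comparison of TAM CM with M1 CM gave -3.73 (SE 0.33, adjusted p = 4.21e-14), while for Mmp13 it gave -0.34 (adjusted p = 0.112), which did not pass.

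Mmp10, for stromelysin-2, and Mmp1b, a mouse relative of the interstitial collagenase gene, stayed low in all media. Mmp10 averaged 3.41 ± 0.329 CPM in M1 CM, 2.06 ± 0.311 CPM in M2 CM and 1.18 ± 0.291 CPM in TAM CM, against 1.86 ± 0.0690 CPM in M0 CM, so that it rose in M1 CM (log2 fold change 0.87, SE 0.22, adjusted p = 0.000625) and fell in TAM CM (log2 fold change -0.67, SE 0.26, adjusted p = 0.0181). Mmp1b had 1.08, 1.11 and 1.02 CPM in M1 CM, 0.464, 0.502 and 0.475 CPM in M2 CM and 0, 0.0452 and 0.102 CPM in TAM CM, against 0.170, 0.597 and 0.530 CPM in M0 CM. Its rise in M1 CM, of 1.33 (SE 0.41, adjusted p = 0.00551), was lost without the first M0 CM library (adjusted p = 0.0786, log2 fold change 0.92). Only 3 reads of Mmp1b were counted in TAM CM, against 27 in M0 CM, a ratio of 0.119 (exact 95% interval 0.0231 to 0.387, counting error only). Mmp1b has a close copy in Mmp1a and overlaps Mmp12 on the other strand by 157 exon bases, so its reads are uncertain.

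Of the 8 other protein-coding genes tested within 500 kb of the cluster, Birc3, an inhibitor of apoptosis, had a log2 fold change of 1.03 (SE 0.043) in M1 CM and -0.46 (SE 0.048) in TAM CM. Dcun1d5, the gene next to Mmp13, was at -0.098 (SE 0.040) in M1 CM and -0.094 (SE 0.040) in TAM CM. In neither medium did the genes flanking the cluster show a rise of the size of Mmp13.

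**Figure D3:**
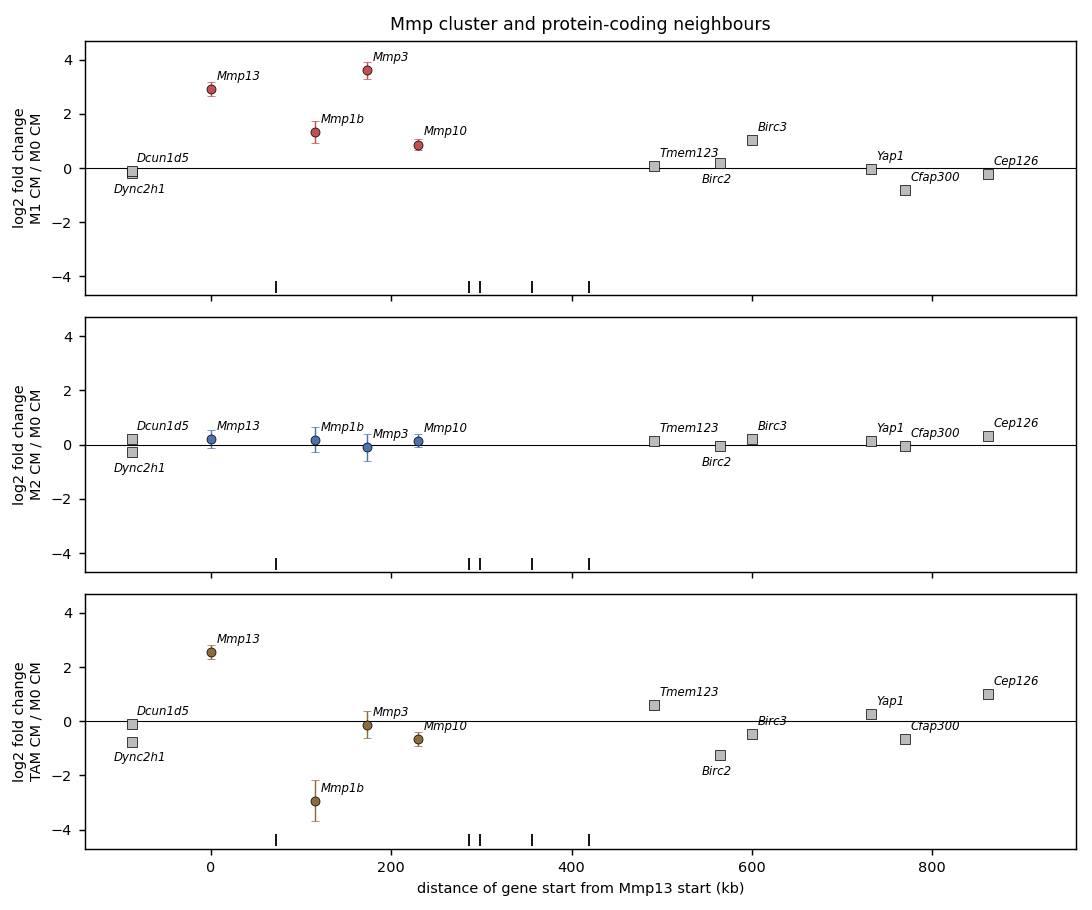
log2 fold change (± SE) of the genes of the chromosome 9 Mmp cluster and of protein-coding neighbours, by distance in kb of each gene's start from that of Mmp13, for M1 CM, M2 CM and TAM CM over M0 CM. Coloured circles are members and grey squares other genes; ticks at the bottom mark the 5 members that did not pass the filter. Mmp13 stands at 2.91 in M1 CM and 2.57 in TAM CM, Mmp3 at 3.61 in M1 CM and -0.13 in TAM CM, and none of the 4 tested members passed the test in M2 CM.

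Mmp19 made the largest rise of any member in TAM CM. It encodes a secreted protease that cuts basement membrane proteins (ENSMUSG00000025355, chromosome 10, 128790910 to 128800824, plus strand). Its libraries had 1.89, 1.78 and 1.53 CPM in M1 CM, 1.07, 0.803 and 0.950 CPM in M2 CM and 15.9, 18.1 and 17.5 CPM in TAM CM, against 1.28, 1.04 and 1.73 CPM in M0 CM. TAM CM stood clear of all other media, and M1 CM and M2 CM each overlapped M0 CM. M2 CM was lower than M1 CM, with no overlap (log2 fold change -0.88, SE 0.24, adjusted p = 0.00173). The rise in TAM CM was 12.7-fold, a log2 fold change of 3.66 (SE 0.16, adjusted p = 1.06e-25); against M1 CM it was 3.30 (SE 0.16, adjusted p = 2.16e-24) and against M2 CM 4.18 (SE 0.17, adjusted p = 9.7e-27). Mmp19 shares 789 exon bases with Tmem198b on the other strand, and the strand setting of the counting is not known. Tmem198b itself had 6.03 CPM in TAM CM, against 9.48 CPM in M0 CM.

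Mmp11, for stromelysin-3, which furin activates inside the cell, moved in opposite directions. It had 25.5, 26.0 and 22.0 CPM in M1 CM, 29.1, 26.7 and 27.5 CPM in M2 CM and 43.0, 46.3 and 43.5 CPM in TAM CM, against 33.9, 33.7 and 32.4 CPM in M0 CM, with no overlap between M0 CM and any of the 3. The log2 fold change was -0.44 (SE 0.065, adjusted p = 9.46e-08) in M1 CM, -0.26 (SE 0.064, adjusted p = 0.000771) in M2 CM and 0.41 (SE 0.061, adjusted p = 6.17e-08) in TAM CM. Mmp11 shares 155 exon bases with Chchd10 on the other strand, which had 2.09 CPM in TAM CM, against 0.225 CPM in M0 CM.

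Mmp28, for epilysin, a protease of keratinocytes, was at 4.97 ± 0.581 CPM in M1 CM, 2.15 ± 0.351 CPM in M2 CM and 3.65 ± 0.819 CPM in TAM CM, against 2.78 ± 0.177 CPM in M0 CM, and passed the test in M1 CM only (log2 fold change 0.84, SE 0.18, adjusted p = 0.000128); TAM CM did not differ from M0 CM by the test (adjusted p = 0.0764) and was lower than M1 CM (log2 fold change -0.46, SE 0.18, adjusted p = 0.022).

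The genes for the gelatinases and their membrane partner changed by less than 2-fold against M0 CM in every medium. Mmp14 encodes MT1-MMP, a membrane-anchored collagenase that activates the Mmp2 proenzyme in a complex with Timp2 (ENSMUSG00000000957, chromosome 14, 54431612 to 54445364, plus strand). Mmp14 had 387, 372 and 363 CPM in M1 CM, 267, 262 and 277 CPM in M2 CM and 245, 240.2 and 248 CPM in TAM CM, against 271, 292 and 286 CPM in M0 CM, highest in every M1 CM library. It rose in M1 CM (log2 fold change 0.41, SE 0.033, adjusted p = 5.7e-15, 1.32-fold) and fell in TAM CM (log2 fold change -0.21, SE 0.034, adjusted p = 3.31e-07). In M2 CM the difference of -0.073 did not pass (adjusted p = 0.0797). It passed, at log2 fold changes from -0.13 to -0.074, with library sizes alone, the stricter filter, a fit of only these 2 groups, or without the first M0 CM or the third M2 CM library (adjusted p 0.0013 to 0.0443).

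Mmp2, for gelatinase A, fell in all 3 media (ENSMUSG00000031740, chromosome 8, 92827291 to 92853420, plus strand). It had 38.1, 39.7 and 41.1 CPM in M1 CM, 43.8, 40.8 and 40.9 CPM in M2 CM and 49.9, 46.0 and 52.9 CPM in TAM CM, against 60.3, 61.9 and 61.3 CPM in M0 CM, and every M0 CM library was above every other. The log2 fold change was -0.63 (SE 0.054, adjusted p = 2.22e-14) in M1 CM, -0.55 (SE 0.053, adjusted p = 3.95e-12) in M2 CM and -0.30 (SE 0.053, adjusted p = 1.44e-06) in TAM CM. In M1 CM, then, the activator gene Mmp14 was higher while both Mmp2 and Timp2 were lower, and in TAM CM all 3 genes of the complex were lower, at log2 fold changes of -0.21, -0.30 and -0.22.

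Mmp9, for gelatinase B, was the most abundant MMP gene per length in M2 CM and M0 CM (ENSMUSG00000017737, chromosome 2, 164940780 to 164955850, plus strand). Its libraries had 166, 149 and 157 CPM in M1 CM, 230.3, 222 and 224 CPM in M2 CM and 146, 139.7 and 156 CPM in TAM CM, against 213, 205 and 205 CPM in M0 CM. M1 CM and TAM CM lay below M0 CM in all libraries, with log2 fold changes of -0.40 (SE 0.038, adjusted p = 9.7e-13) and -0.50 (SE 0.038, adjusted p = 5.28e-16). The small rise in M2 CM, of 0.12 (SE 0.037, adjusted p = 0.0103), was lost without the second M0 CM library (adjusted p = 0.0612), the third M0 CM library (0.0597) or the first M2 CM library (0.0639), and with library sizes alone (0.19).

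**Figure D4:**
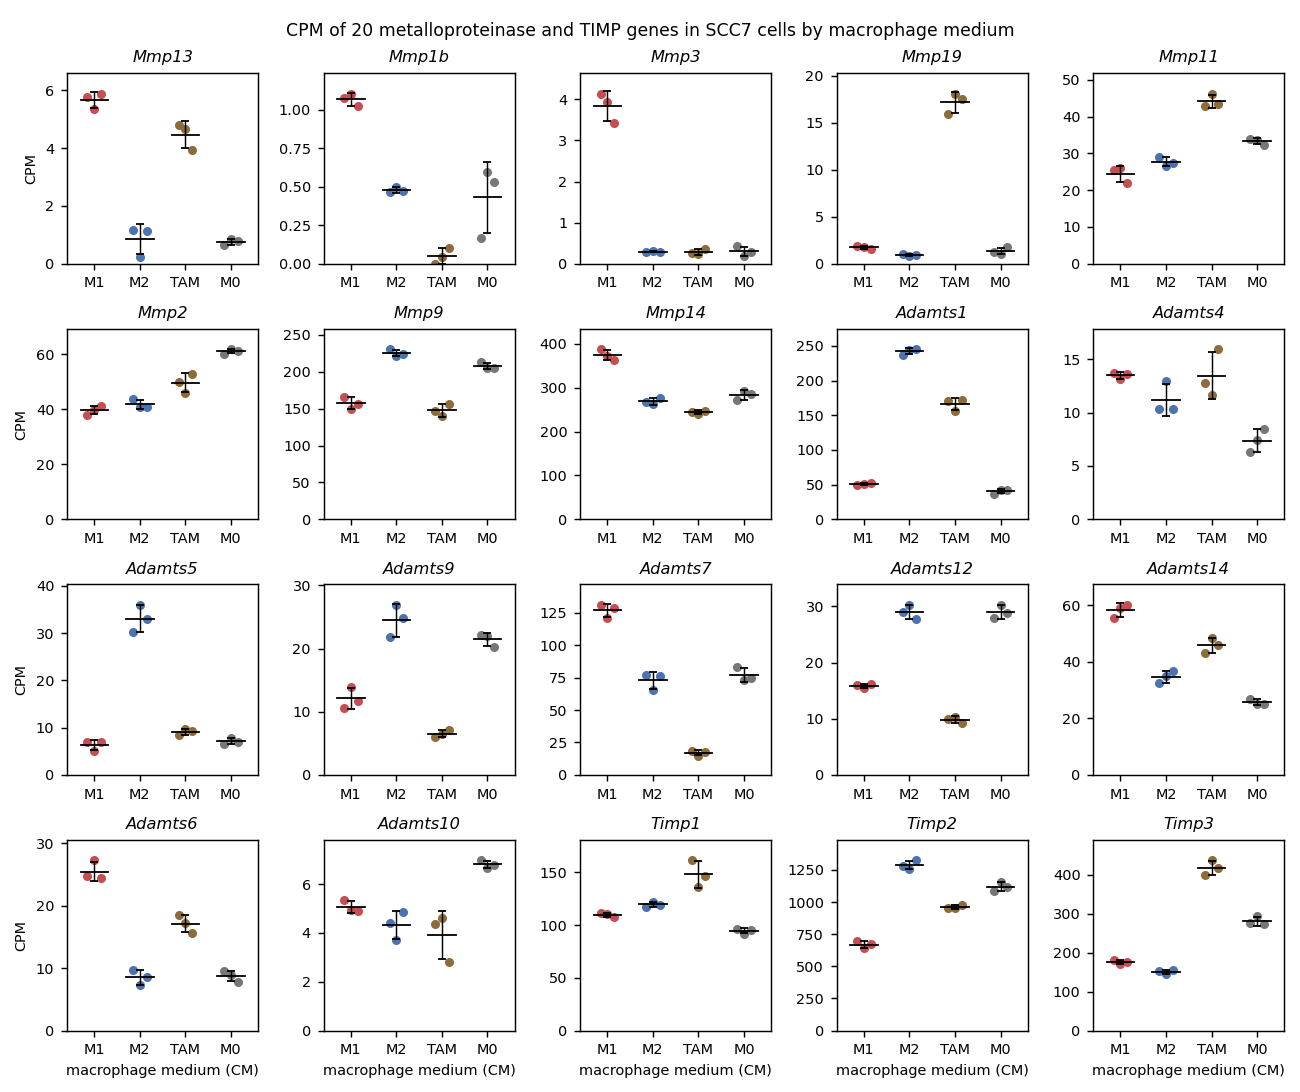
CPM in each of the 3 libraries (points), with mean and SD (lines), of the 20 members with at least 5 CPM in a medium or a called 2-fold change against M0 CM, in M1 CM, M2 CM, TAM CM and M0 CM; each panel has its own axis from 0. Adamts1 is high in M2 CM and TAM CM, Adamts5 in M2 CM, Mmp19 and Timp3 in TAM CM, and Mmp3, Adamts6 and Adamts7 are highest in M1 CM.

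Among the ADAMTS genes, the largest rises were those of Adamts1 and Adamts5 in M2 CM and of Adamts1 in TAM CM. Both encode proteases that cut versican and aggrecan, as do Adamts4, which rose by less, and Adamts9, which fell in M1 CM and TAM CM. Adamts1 (ENSMUSG00000022893, chromosome 16, 85793827 to 85803113, minus strand) had 49.2, 50.5 and 52.1 CPM in M1 CM, 237, 244 and 245 CPM in M2 CM and 170.2, 156 and 173 CPM in TAM CM, against 36.9, 41.7 and 42.4 CPM in M0 CM. No library of M0 CM overlapped another medium, and the order M2 CM, TAM CM, M1 CM held in every library. Adamts1 was 6.03-fold higher in M2 CM (log2 fold change 2.59, SE 0.045, adjusted p = 1.44e-40), 4.13-fold higher in TAM CM (log2 fold change 2.05, SE 0.045, adjusted p = 4.91e-37) and 1.26-fold higher in M1 CM (log2 fold change 0.33, SE 0.050, adjusted p = 2.12e-07). TAM CM was lower than M2 CM by a log2 fold change of -0.54 (SE 0.039, adjusted p = 3.17e-17).

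Adamts5, for a main aggrecanase of cartilage, is the neighbour of Adamts1 (ENSMUSG00000022894, chromosome 16, 85856173 to 85901828, minus strand), 53.1 kb away, with no other protein-coding gene of the table between them. It rose with Adamts1 in M2 CM but much less in TAM CM. Adamts5 had 6.88, 5.10 and 6.96 CPM in M1 CM, 30.3, 36.0 and 32.9 CPM in M2 CM and 8.46, 9.76 and 9.22 CPM in TAM CM, against 6.59, 7.81 and 6.94 CPM in M0 CM. The rise was 4.65-fold in M2 CM (log2 fold change 2.22, SE 0.099, adjusted p = 2.05e-24) and 1.29-fold in TAM CM (log2 fold change 0.37, SE 0.12, adjusted p = 0.00412), and M1 CM did not pass (-0.17, adjusted p = 0.256). TAM CM against M2 CM gave -1.85 (SE 0.096, adjusted p = 8.8e-23) for Adamts5, beside -0.54 for Adamts1. Within 500 kb of the pair the table held 1 other protein-coding gene, Cyyr1, which did not pass the filter.

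Adamts4, a further aggrecanase gene (ENSMUSG00000006403, chromosome 1, 171250421 to 171260637, plus strand), rose in all 3 media. It had 13.7, 13.1 and 13.7 CPM in M1 CM, 10.3, 12.9 and 10.4 CPM in M2 CM and 12.8, 11.7 and 15.9 CPM in TAM CM, against 6.29, 7.41 and 8.43 CPM in M0 CM, with every M0 CM library below the rest. The log2 fold change was 0.88 (SE 0.12, adjusted p = 2.11e-08) in M1 CM, 0.61 (SE 0.12, adjusted p = 6.92e-05) in M2 CM and 0.87 (SE 0.12, adjusted p = 1.49e-08) in TAM CM.

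Adamts9, also a versican-cutting protease gene (ENSMUSG00000030022, chromosome 6, 92772699 to 92943492, minus strand), went the other way. Its libraries had 10.7, 14.0 and 11.7 CPM in M1 CM, 21.8, 26.9 and 24.8 CPM in M2 CM and 5.95, 6.55 and 7.18 CPM in TAM CM, against 22.2, 22.1 and 20.3 CPM in M0 CM. M1 CM and TAM CM lay below M0 CM throughout, with log2 fold changes of -0.83 (SE 0.094, adjusted p = 1.05e-10) and -1.71 (SE 0.10, adjusted p = 3.88e-20), the last a 3.27-fold fall. In M2 CM the value of 0.19 did not pass (adjusted p = 0.0821), but did without the first M2 CM library (0.0229) and in a fit of these 2 groups (0.0322). Vcan, the versican gene itself, was at 466 ± 14.5 CPM in M1 CM, 390.4 ± 5.58 CPM in M2 CM and 156 ± 7.53 CPM in TAM CM, against 331 ± 2.60 CPM in M0 CM. It rose in M1 CM (log2 fold change 0.49, SE 0.033, adjusted p = 2.24e-18) and M2 CM (log2 fold change 0.24, SE 0.033, adjusted p = 3.5e-08) and fell in TAM CM (log2 fold change -1.08, SE 0.034, adjusted p = 1.27e-31).

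Adamts7 and Adamts12, a related pair whose products cut cartilage oligomeric matrix protein, both fell in TAM CM. Adamts7 (ENSMUSG00000032363, chromosome 9, 90163069 to 90208071, plus strand) had 131, 121 and 128 CPM in M1 CM, 77.0, 65.6 and 75.8 CPM in M2 CM and 18.3, 14.7 and 18.0 CPM in TAM CM, against 83.4, 72.7 and 75.0 CPM in M0 CM. The M1 CM libraries were all above, the TAM CM libraries all far below, and those of M2 CM overlapped M0 CM. Adamts7 was 4.55-fold lower in TAM CM (log2 fold change -2.19, SE 0.085, adjusted p = 2.01e-13) and 1.64-fold higher in M1 CM (log2 fold change 0.72, SE 0.066, adjusted p = 7.21e-08), so that TAM CM and M1 CM differed by -2.90 (SE 0.082, adjusted p = 2.35e-15). It shares 122 exon bases with Tbc1d2b on the other strand, at -0.017 in TAM CM and 0.39 in M1 CM.

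Adamts12 (ENSMUSG00000047497, chromosome 15, 11064790 to 11349231, plus strand) had 15.9, 15.5 and 16.3 CPM in M1 CM, 29.0, 30.2 and 27.8 CPM in M2 CM and 9.99, 10.3 and 9.17 CPM in TAM CM, against 27.9, 30.3 and 28.9 CPM in M0 CM. Unlike Adamts7 it fell in M1 CM as well (log2 fold change -0.87, SE 0.074, adjusted p = 1.68e-14), and in TAM CM by more (log2 fold change -1.56, SE 0.080, adjusted p = 4.1e-23, 2.94-fold lower). M2 CM overlapped M0 CM (adjusted p = 1). Comp, which encodes the shared substrate, did not pass the filter.

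Adamts14 encodes a protease that removes the amino-terminal propeptide of fibrillar procollagens (ENSMUSG00000059901, chromosome 10, 61197112 to 61273438, minus strand). It had 55.6, 59.1 and 60.2 CPM in M1 CM, 32.6, 34.9 and 36.8 CPM in M2 CM and 43.1, 48.4 and 46.1 CPM in TAM CM, against 26.9, 25.1 and 25.2 CPM in M0 CM, above M0 CM in all libraries of all 3 media. The log2 fold change was 1.18 (SE 0.059, adjusted p = 5.86e-23) in M1 CM, 0.43 (SE 0.062, adjusted p = 1.34e-07) in M2 CM and 0.83 (SE 0.061, adjusted p = 2.8e-17) in TAM CM. The other members with this activity, Adamts2 and Adamts3, had at most 1 read in a library.

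Adamts6 and Adamts10 are a related pair linked to fibrillin microfibrils, and they diverged. Adamts6 (ENSMUSG00000046169, chromosome 13, 104287835 to 104496695, plus strand) had 24.7, 27.3 and 24.5 CPM in M1 CM, 9.75, 7.27 and 8.51 CPM in M2 CM and 18.4, 17.3 and 15.7 CPM in TAM CM, against 9.48, 8.85 and 7.85 CPM in M0 CM. It rose 2.91-fold in M1 CM (log2 fold change 1.54, SE 0.096, adjusted p = 2.25e-19) and 1.96-fold in TAM CM (log2 fold change 0.97, SE 0.10, adjusted p = 3.95e-12), while M2 CM overlapped M0 CM. Adamts10 (ENSMUSG00000024299, chromosome 17, 33524204 to 33553782, plus strand) had 5.35, 4.95 and 4.91 CPM in M1 CM, 4.41, 3.71 and 4.85 CPM in M2 CM and 4.37, 4.61 and 2.80 CPM in TAM CM, against 6.97, 6.66 and 6.79 CPM in M0 CM. Every M0 CM library was higher than all the others, and Adamts10 fell by 0.42 (SE 0.15, adjusted p = 0.0143) in M1 CM, 0.65 (SE 0.15, adjusted p = 0.000454) in M2 CM and 0.79 (SE 0.16, adjusted p = 1.4e-05) in TAM CM on the log2 scale.

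The 3 inhibitors that the cells expressed each had a pattern of their own. Timp1 is a secreted inhibitor of most soluble MMPs (ENSMUSG00000001131, chromosome X, 20870166 to 20874735, plus strand). It had 112, 110.3 and 108 CPM in M1 CM, 118, 122 and 119 CPM in M2 CM and 161, 136 and 147 CPM in TAM CM, against 96.6, 91.8 and 94.9 CPM in M0 CM, and rose in all 3 media with no overlap. The log2 fold change was 0.22 (SE 0.044, adjusted p = 4.16e-05) in M1 CM, 0.34 (SE 0.043, adjusted p = 1.58e-08) in M2 CM and 0.64 (SE 0.043, adjusted p = 1.83e-17) in TAM CM.

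Timp2, which both inhibits MMPs and joins Mmp14 in activating Mmp2 (ENSMUSG00000017466, chromosome 11, 118301069 to 118355740, minus strand), had 694, 639 and 673 CPM in M1 CM, 1282, 1258 and 1324 CPM in M2 CM and 951, 956 and 979 CPM in TAM CM, against 1089, 1157 and 1114 CPM in M0 CM. It was lowest in every M1 CM library and highest in every M2 CM library. Timp2 fell 1.67-fold in M1 CM (log2 fold change -0.74, SE 0.031, adjusted p = 3.11e-26) and by less in TAM CM (log2 fold change -0.22, SE 0.031, adjusted p = 1.5e-08), and rose in M2 CM (log2 fold change 0.20, SE 0.031, adjusted p = 4.03e-07).

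Timp3, a matrix-bound inhibitor that also blocks Adamts4, Adamts5 and the sheddase Adam17 (ENSMUSG00000020044, chromosome 10, 86300372 to 86349506, plus strand), changed in all 3 media. It had 181, 169.6 and 176 CPM in M1 CM, 154, 145 and 154 CPM in M2 CM and 399, 436 and 417 CPM in TAM CM, against 276, 293 and 272 CPM in M0 CM. TAM CM was above M0 CM, and M1 CM and M2 CM were below it, in all libraries. Timp3 fell in M1 CM (log2 fold change -0.68, SE 0.036, adjusted p = 1.54e-21) and M2 CM (log2 fold change -0.89, SE 0.037, adjusted p = 1.55e-25) and rose in TAM CM (log2 fold change 0.58, SE 0.035, adjusted p = 7.2e-20). TAM CM stood 2.77-fold above M2 CM (log2 fold change 1.47, SE 0.037, adjusted p = 1.51e-35) and 2.38-fold above M1 CM (log2 fold change 1.25, SE 0.036, adjusted p = 9.16e-33). In M2 CM, where Adamts1 and Adamts5 were highest, Timp3 was thus at its lowest.

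Summed per kb of exon over all members of a family, the ADAMTS genes stood at 50.5 ± 0.772 CPM per kb in M1 CM, 75.3 ± 1.17 CPM per kb in M2 CM and 50.6 ± 1.84 CPM per kb in TAM CM, against 33.1 ± 0.366 CPM per kb in M0 CM. The MMP sum moved less, at 137 ± 4.35 CPM per kb in M1 CM, 134 ± 2.95 CPM per kb in M2 CM and 122 ± 3.64 CPM per kb in TAM CM, against 139 ± 0.973 CPM per kb in M0 CM, and is mostly Mmp9 and Mmp14. For the TIMP genes it was 317 ± 8.57 CPM per kb in M1 CM, 484 ± 8.12 CPM per kb in M2 CM and 465 ± 11.6 CPM per kb in TAM CM, against 428 ± 7.31 CPM per kb in M0 CM, mostly Timp2 and Timp1.

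Set directly against each other, the media differed for most members. In TAM CM against M1 CM 8 members were higher and 12 lower, where 67.2% of all genes were called (32.8% higher, 34.4% lower). For TAM CM against M2 CM the numbers were 10 and 10, beside 68.4% (34.3% and 34.1%), and for M2 CM against M1 CM 8 and 12, beside 56.2% (27.8% and 28.4%). At least 2-fold apart were 7 members between TAM CM and M1 CM (15.1% of all genes), 9 between TAM CM and M2 CM (17.4%) and 8 between M2 CM and M1 CM (8.97%). In M2 CM against M1 CM, these 8 were Adamts1 (2.26), Adamts5 (2.39) and Adamts9 (1.02) on the higher side. On the lower side were Mmp3 (-3.71), Mmp13 (-2.71), Adamts6 (-1.58), Mmp28 (-1.21) and Mmp1b (-1.15), all as log2 fold changes.

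The other 23 members did not pass the filter. Of these, 6 had no reads in any library (Adamts3, Adamts16, Adamts18, Mmp7, Mmp16 and Mmp20), and 22 had at most 7 reads in a library. The low ones include Mmp8, the neutrophil collagenase gene, Timp4, and Adamts13, whose product cuts von Willebrand factor. Mmp12, the macrophage elastase gene, had up to 16 reads. It had 16, 3 and 8 reads in M1 CM, 6, 0 and 4 in M2 CM and 3, 4 and 3 in TAM CM, against none in M0 CM. Mmp12 was higher by at least 7.03-fold in M1 CM, 2.31-fold in M2 CM and 2.40-fold in TAM CM, the lower ends of exact 95% intervals of the ratio of summed reads, which cover counting error only. Mmp12 was singled out after its values were seen.

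Since Mmp12 is also a macrophage gene, macrophage markers are given beside it. The summed level of 9 other macrophage markers was 36.7 ± 3.10 CPM in M1 CM (range 33.6 to 39.8), 23.7 ± 1.22 CPM in M2 CM (22.4 to 24.9) and 46.0 ± 4.80 CPM in TAM CM (40.8 to 50.3), against 23.2 ± 0.665 CPM in M0 CM (22.7 to 23.9), and 4 of the 9 passed the filter. Most of the sum was Cd14, at 26.1 CPM in M1 CM, 15.9 CPM in M2 CM and 40.9 CPM in TAM CM, against 17.3 CPM in M0 CM. The mannose receptor gene Mrc1 was at 2.60 CPM in M1 CM, 1.90 CPM in M2 CM and 0.725 CPM in TAM CM, against 0.681 CPM in M0 CM. Cd68 was at 6.99 CPM in M1 CM, 5.03 CPM in M2 CM and 2.89 CPM in TAM CM, against 3.89 CPM in M0 CM. Csf1r, for the receptor of a macrophage growth factor, was at 0.525 CPM in M1 CM, 0.371 CPM in M2 CM and 0.140 CPM in TAM CM, against 0.303 CPM in M0 CM. The other defining markers Adgre1, Itgam and Marco had at most 4, 1 and 0 reads in a library. Mmp12, Mrc1, Cd68, Csf1r and, at few reads, Adgre1 each had a higher mean in M1 CM and M2 CM than in M0 CM. Lyz2 went the other way, at 0.422 CPM in M1 CM and 0.416 CPM in M2 CM, against 0.831 CPM in M0 CM. So did Fcgr1, at 0.0321 CPM and 0.0322 CPM, against 0.134 CPM, with up to 6 reads in a library. Cd14 was higher in M1 CM and lower in M2 CM, so the markers did not move as one.

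Neutrophil markers summed to 2.04 ± 0.412 CPM in M1 CM, 0.349 ± 0.108 CPM in M2 CM and 0.273 ± 0.199 CPM in TAM CM, against 0.248 ± 0.00709 CPM in M0 CM, with S100a9, Ly6g and Csf3r at 0. The sum in M1 CM was nearly all S100a8, at 1.90 CPM in M1 CM, against 0.0321 CPM in M0 CM, with up to 51 reads in a library. Fibroblast markers summed to 1482 ± 52.8 CPM in M1 CM, 1482 ± 12.8 CPM in M2 CM and 1167 ± 31.0 CPM in TAM CM, against 2563 ± 77.2 CPM in M0 CM. Collagen genes made most of that sum, Col1a2 being at 784 CPM in M1 CM, 911 CPM in M2 CM and 554 CPM in TAM CM, against 1475 CPM in M0 CM. Pdgfra, by contrast, was at 263 CPM in M1 CM, 168 CPM in M2 CM and 319.7 CPM in TAM CM, against 236 CPM in M0 CM, and Dcn at 12.5 CPM in M1 CM, 4.10 CPM in M2 CM and 16.9 CPM in TAM CM, against 2.82 CPM in M0 CM. Of the other fibroblast markers, Lum and Thy1 had 0 reads in every library and Fap at most 2. Squamous epithelium markers, nearly all the simple keratins Krt8 and Krt18, summed to 168 ± 1.81 CPM in M1 CM, 719 ± 39.4 CPM in M2 CM and 95.7 ± 5.61 CPM in TAM CM, against 375 ± 15.4 CPM in M0 CM. Trp63 and Dsp of that list did not share the higher level in M2 CM. Trp63 was at 0.124 CPM in M1 CM, 1.07 CPM in M2 CM and 0.364 CPM in TAM CM, against 1.79 CPM in M0 CM. Dsp was at 0.633 CPM in M1 CM, 0.910 CPM in M2 CM and 0.242 CPM in TAM CM, against 1.55 CPM in M0 CM.

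Melanocyte markers were at 11.3 ± 1.60 CPM in M1 CM, 6.57 ± 0.907 CPM in M2 CM (range 5.57 to 7.34) and 11.8 ± 0.912 CPM in TAM CM, against 8.27 ± 1.05 CPM in M0 CM. Nearly all of it was Mitf, and Sox10, Tyr, Dct and Mlana had at most 3 reads in a library. The M2 CM library labelled melanoma correlated at 0.9935 with each of the other M2 CM libraries (log2 CPM), and these at 0.9934 with each other. Such values are not given for pairs of different media, so they do not show which cells or medium that library comes from. The part of other cell types in the changes of the members was not tested.

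Genes that work with these proteases were read from lists. Each list stands beside all genes tested, of which 27.7% rose and 25.6% fell in M1 CM (median log2 fold change 0.012). In M2 CM 21.0% of all genes rose and 18.5% fell (median -0.0035), and in TAM CM 35.1% rose and 34.9% fell (median 0.00086). The plasminogen system activates several MMP proenzymes. Of 9 tested genes of that list 4 rose and 3 fell in M1 CM (median log2 fold change 0.15), 2 rose and 3 fell in M2 CM (median -0.023), and 3 rose and 6 fell in TAM CM (median -0.40). Plau, the urokinase gene, was at 17.2 ± 1.01 CPM in M1 CM, 61.9 ± 2.26 CPM in M2 CM and 13.5 ± 0.192 CPM in TAM CM, against 17.5 ± 1.28 CPM in M0 CM, a rise of 1.82 (SE 0.065, adjusted p = 3.07e-28) in M2 CM. Anxa2 and S100a10, whose products form a plasminogen receptor, fell in all 3 media, most in TAM CM, by 1.63 (SE 0.035, adjusted p = 4.36e-34) and 1.10 (SE 0.034, adjusted p = 3.66e-32) on the log2 scale. Serpinb6a of the same list rose in TAM CM (log2 fold change 1.02, SE 0.036, adjusted p = 2.13e-29). So did Plaur, at 295 ± 30.2 CPM in TAM CM, against 57.2 ± 3.75 CPM in M0 CM (log2 fold change 2.36, SE 0.084, adjusted p = 1.19e-09).

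Of 11 tested activators and membrane regulators 4 rose and 5 fell in M1 CM (median log2 fold change -0.15), 2 rose and 2 fell in M2 CM (median -0.048), and 2 rose and 6 fell in TAM CM (median -0.24). Lrp1, an endocytic receptor that clears MMPs, ADAMTS proteases and TIMPs from the matrix, was at 873 ± 16.4 CPM in M1 CM, 874 ± 27.6 CPM in M2 CM and 827 ± 24.0 CPM in TAM CM, against 1352 ± 25.9 CPM in M0 CM. It fell in each, with log2 fold changes of -0.63 (SE 0.030, adjusted p = 5.53e-24) in M1 CM, -0.63 (SE 0.030, adjusted p = 2.74e-23) in M2 CM and -0.71 (SE 0.030, adjusted p = 1.8e-26) in TAM CM. Furin, the protease that activates Mmp11 and Mmp14, also fell in each, most in TAM CM (log2 fold change -0.46, SE 0.042, adjusted p = 5.86e-14). Cd63, a tetraspanin that binds Timp1, rose in each, most in TAM CM (log2 fold change 0.62, SE 0.034, adjusted p = 1.18e-21).

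Of 8 tested ADAMTS-like and related genes 2 rose and 4 fell in M1 CM (median log2 fold change -0.34), 2 rose and 3 fell in M2 CM (median -0.34), and 3 rose and 5 fell in TAM CM (median -0.31). Fbn1, the fibrillin-1 gene, was at 500.2 ± 9.71 CPM in M1 CM, 692 ± 14.5 CPM in M2 CM and 283 ± 6.05 CPM in TAM CM, against 465 ± 17.1 CPM in M0 CM. Thsd4, an ADAMTS-like protein gene, rose 1.59 (SE 0.072, adjusted p = 2.4e-25) in TAM CM, where Adamtsl4 fell (log2 fold change -1.83, SE 0.066, adjusted p = 3.04e-29).

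Of 12 tested matrix substrate genes 5 rose and 6 fell in M1 CM (median log2 fold change -0.19), 5 rose and 7 fell in M2 CM (median -0.25), and 3 rose and 9 fell in TAM CM (median -0.52). Thbs1, for thrombospondin-1, fell to 17.9 ± 0.159 CPM in TAM CM, against 172 ± 1.51 CPM in M0 CM (log2 fold change -3.27, SE 0.045, adjusted p = 2.27e-46). Thbs2 moved the same way (log2 fold change -2.04, SE 0.048, adjusted p = 1.1e-33), while Fn1, for fibronectin, was at 4089 ± 95.6 CPM in TAM CM, against 2576 ± 102 CPM in M0 CM, a rise of 0.67 (SE 0.030, adjusted p = 1.78e-25). Fn1 fell in M1 CM (log2 fold change -0.84, SE 0.030, adjusted p = 4.94e-29) and in M2 CM (log2 fold change -0.45, SE 0.030, adjusted p = 7.53e-18). The lists were described by counts and were not tested as sets, and no list is said to differ from all genes.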

How the data were processed

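RNA of SCC7 cells was sequenced in 12 libraries, 3 for each of 4 macrophage media, grouped by their titles. The authors' deposited table gives raw read counts per Ensembl gene, unscaled. The submitters' processing notes list HISAT2 2.0 and build mm10, with no further detail. The sources used here do not give the counting tool, the annotation release or whether strand was used. Of 55487 genes, 55227 were matched by identifier to GENCODE release M21 (GRCm38), which gave symbols, types, coordinates and exon lengths, and that release may differ from the authors'. Promoter windows are RefSeq's.

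The tests used edgeR 4.0.16 in R 4.3.3, with filterByExpr on the groups (14509 genes), TMM, glmQLFit (robust) with a mean per medium, and glmQLFTest, with p-values adjusted by Benjamini-Hochberg over those genes. The biological coefficient of variation was 3.65%. The smallest library has 18996937 counts, so genes under 1 CPM rest on few counts. Intervals and floors cover counting error only. The SE was taken from the F statistic as the size of the log2 fold change divided by its root. Members named with all libraries had at least 5 CPM in a medium or a called 2-fold change against M0 CM, and from each list up to 4 genes with the smallest p over the media were named, plus any gene whose role a sentence turns on (Comp). Plaur was added after its values were seen. The members, lists and rules were chosen with earlier results of these data known.

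The alternatives were DESeq2 1.42.0, its size factors, library sizes alone, other filters, fits of only 2 groups, a replicate term, glmTreat and each library left out. The steps were tested on simulated counts for M1 CM against M0 CM (13884 genes tested): 33, 41, 47 and 50 of 50 genes changed 1.25-, 1.5-, 2- and 4-fold were recovered, and 8 of 13684 unchanged genes were called. Those counts were drawn with the spread that the same model fitted, and only 200 genes were changed, none under 1 CPM in M0 CM. They check that the steps run as meant, and give no error rate where most genes change or for members under 1 CPM. No pair of libraries was identical. Figures were drawn with matplotlib 3.10.9.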

Additional observations from a re-analysis of the deposited data

How the results depend on the processing

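The numbers of members called kept within 1.5 times of those reported under every alternative except glmTreat, which asks for more than a 1.5-fold change and by its construction calls fewer. It called 9 members in M1 CM against M0 CM, 3 in M2 CM against M0 CM, 10 in TAM CM against M0 CM, 9 in TAM CM against M1 CM, 9 in TAM CM against M2 CM and 11 in M2 CM against M1 CM. Of all genes tested it called 9.46%, 2.59%, 26.3%, 20.6%, 23.6% and 9.74% in the same order. With each library left out in turn the counts ran from 19 to 20, 10 to 12, 20 to 20, 17 to 20, 19 to 20 and 17 to 20 in the same order, and 22 for any difference among the media. Of all genes, 48.2 to 52.9%, 33.7 to 40.4% and 66.2 to 70.1% were then called in the comparisons with M0 CM. In the others, in order, it was 63.2 to 66.4%, 64.1 to 68.6% and 51.4 to 55.8%, and 80.7 to 82.3% for any difference. Without the third M2 CM library, 12 members were called in M2 CM against M0 CM, 7 higher and 5 lower, beside 34.6% of all genes. With the replicate number as a block, the counts were 20, 11, 20, 20, 20, 20 and 22, as without it. Of all genes, 53.8%, 40.1%, 70.2%, 67.4%, 68.6%, 56.6% and 83.5% were called with the block. Deviations of same-numbered libraries of different media correlated at -0.029 to 0.051 over 18 pairs, none over 0.1, and those of other pairs at -0.052 to 0.052. Yet 10 of 12 libraries correlated best, on average, with those of their own number. Whether libraries of a number share a weak effect was not tested. The main fit has no term for the number. With no filter on low counts, Mmp12 was also called higher in each medium than in M0 CM.

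For the 20 members named with all libraries, 1149 of 1197 repeated values kept direction and side of the threshold, 31 calls were lost, 26 of them under glmTreat, and 7 were gained. The sign turned in 10 cases, none of a called change. All came from leaving out a library, which leaves 2 in that group, and lie within these ranges over the libraries left out. In M2 CM against M0 CM the log2 fold change ran from -0.035 to 0.026 for Adamts12 (2 of the 10 cases), from -0.15 to 0.058 for Adamts6 (2), from -0.081 to 0.62 for Mmp13 (2), from -0.23 to 0.48 for Mmp1b (1) and from -0.32 to 0.23 for Mmp3 (1). For Mmp3 in TAM CM against M0 CM it ran from -0.34 to 0.21 (2).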

Other observations

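Membrane sheddases and lysosomal cathepsins, which also act on the cell surface and matrix, were read from lists beside the MMPs. Of all genes tested, 27.7% rose and 25.6% fell in M1 CM, 21.0% and 18.5% in M2 CM, and 35.1% and 34.9% in TAM CM. Their median log2 fold changes were 0.012, -0.0035 and 0.00086. These lists were not tested as sets either. Of 10 tested ADAM sheddase genes and partners 5 rose and 3 fell in M1 CM (median log2 fold change 0.10), 6 rose and 1 fell in M2 CM (median 0.19), and 4 rose and 4 fell in TAM CM (median -0.38). Adam9 was at 293 ± 10.9 CPM in M1 CM, 268 ± 11.6 CPM in M2 CM and 498 ± 5.54 CPM in TAM CM, against 233 ± 5.96 CPM in M0 CM, a rise of 1.09 (SE 0.034, adjusted p = 4.39e-32) in TAM CM on the log2 scale. Adam10, a main sheddase of Notch and cadherins, fell in M1 CM (log2 fold change -0.56, SE 0.038, adjusted p = 6.15e-18) and TAM CM (log2 fold change -0.80, SE 0.039, adjusted p = 5.21e-24) and rose in M2 CM (log2 fold change 0.22, SE 0.037, adjusted p = 2.27e-06). Rhbdf1, an inactive rhomboid that helps mature Adam17, fell in M1 CM (log2 fold change -0.63, SE 0.049, adjusted p = 1.29e-15) and TAM CM (log2 fold change -1.22, SE 0.052, adjusted p = 3.74e-26).

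Of 8 tested cathepsin and cystatin genes 5 rose and 0 fell in M1 CM (median log2 fold change 0.39), 2 rose and 4 fell in M2 CM (median -0.18), and 4 rose and 1 fell in TAM CM (median 0.32). Ctsl, a lysosomal cysteine protease that is also secreted, was at 1284 ± 48.3 CPM in M1 CM, 815 ± 27.0 CPM in M2 CM and 2119.9 ± 79.3 CPM in TAM CM, against 721 ± 5.41 CPM in M0 CM, with log2 fold changes of 0.83 (SE 0.031, adjusted p = 3.86e-28) in M1 CM, 0.18 (SE 0.031, adjusted p = 6.39e-06) in M2 CM and 1.56 (SE 0.032, adjusted p = 1.16e-39) in TAM CM. Ctsb was at 1074 ± 12.3 CPM in M1 CM, 673 ± 13.2 CPM in M2 CM and 1516 ± 86.3 CPM in TAM CM, against 761 ± 15.9 CPM in M0 CM.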
